A study of Mus musculus with 10 samples.

Results

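Expression of 10 genes of the Notch pathway was examined in cultured mouse neurons that had received the kinase inhibitor SP600125 or its solvent. The genes were chosen by name: the transcriptional effectors Hes1, Hes5, Hey1 and Hey2, the target and feedback inhibitor Nrarp, the ubiquitin ligase Dtx1, the ligands Dll1, Dll3 and Jag1, and the receptor Notch1. All 10 were measured, each by 1 probe set that carried no other gene symbol, among 19938 genes on the arrays. The cells were neurons of the strain background 129Sv-C57Bl/6, differentiated to their terminal state in culture and kept in complete medium. SP600125, which blocks the ATP site of JNK, the kinase of JUN, was added 3 times at 25 µM with 2 hours between additions, and DMSO was added to the control neurons in the same way. The 5 biological replicates of each group carry the letters a to e. Replicates a and b belong to drug batch 1, and c, d and e to drug batch 2, the batch being that of the agent. The labels do not say whether replicates were separate cultures, and the p-values then describe only how far these samples scatter, possibly for technical reasons.

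In Notch signalling, a ligand of the Delta or Jagged family on 1 cell binds a Notch receptor on its neighbour. The receptor is then cut, first by an ADAM protease and then by gamma-secretase, and its freed intracellular domain enters the nucleus, where it joins the DNA-binding protein RBPJ and coactivators of the Mastermind family. The best known targets are genes of the Hes and Hey families, whose products are bHLH repressors that keep neural progenitors from differentiating, and Nrarp, whose product binds the intracellular domain and limits its action. Neurons keep Notch receptors after differentiation, where the pathway is known to act on neurite growth and on synapses.

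The 10 genes did not move together. Hey1 and Hey2 rose after SP600125, Nrarp, Dtx1 and Dll1 fell, and Hes1, Hes5, Dll3, Jag1 and Notch1 did not pass the test (limma with a term for drug batch, Benjamini-Hochberg adjusted p under 0.05 over all genes). The changes were small, from −0.31 to 0.32 on the log2 scale, with a median of −0.06. Thus 5 of 10 members were called, 2 upward and 3 downward, where 46.9% of all genes were called, 17.0% upward and 29.9% downward, and the median over all genes was −0.03. The share of members called was near that of the whole array. In 2 members the arrays of the groups did not overlap, as was the case for 23.1% of all genes. Hey1 was higher on every SP600125 array (6.65% of all genes were) and Nrarp lower (16.4% of all genes were). The same 2 members separated within both drug batches in 1 direction, against 31.2% of all genes.

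**Figure D1:**
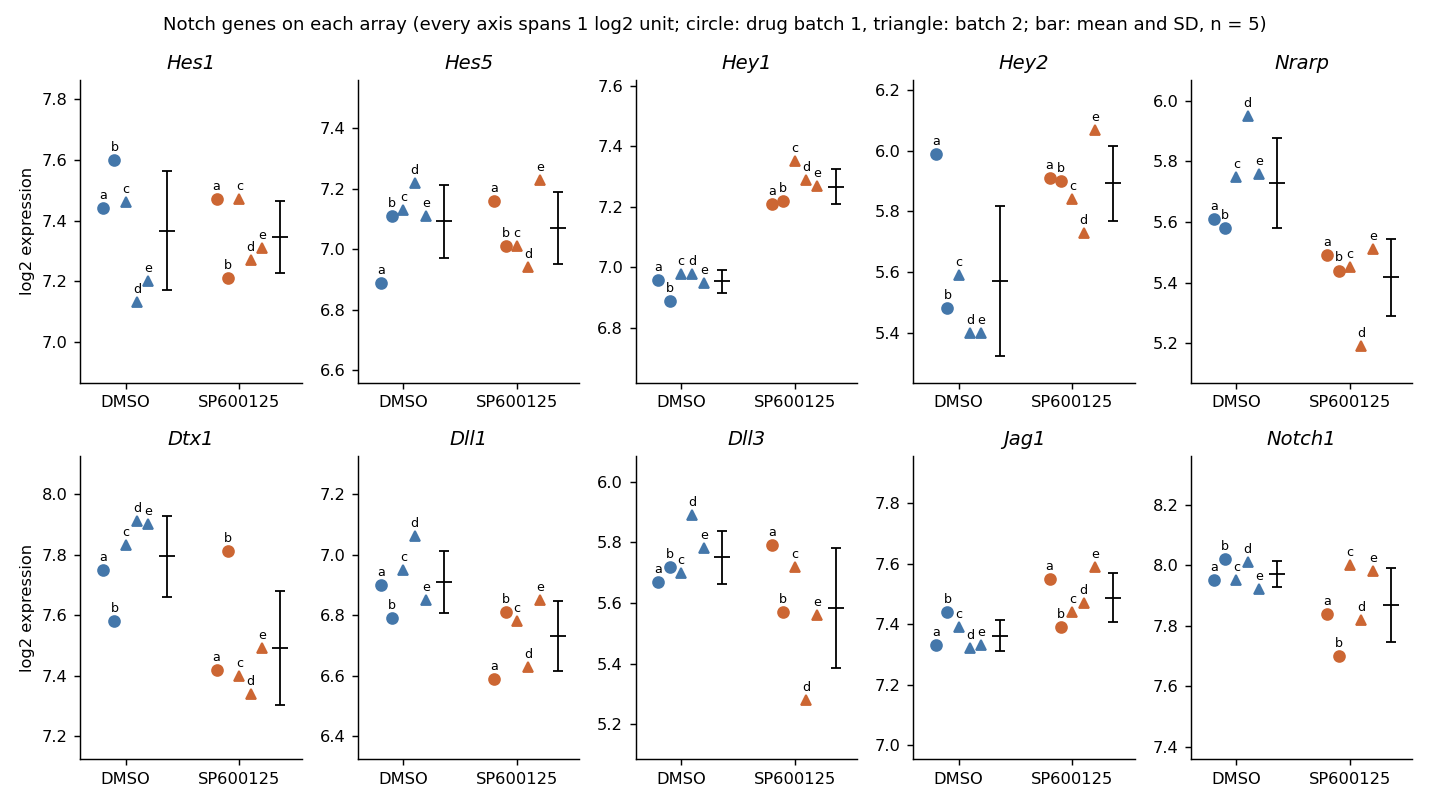
Log2 expression (vertical axis) of each of the 10 genes on the 5 DMSO arrays (blue) and the 5 SP600125 arrays (orange), with the replicate letter above each point and the mean and SD of each group as black bars. Hey1 lies between 6.89 and 6.98 on the DMSO arrays and between 7.21 and 7.35 on the SP600125 arrays, whereas the points of Hes1 and Hes5 overlap throughout.

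Features of the arrays as a whole bear on these values. Dim genes tended to rise and bright genes to fall: the median change was 0.08 for genes with a mean log2 level from 5 to 6, −0.14 from 6 to 7 and −0.22 from 7 to 8. Rises made up 36.2% of all calls on the deposited values, 25.0% after quantile normalization, 34.7% after cyclic loess, 14.8% after all arrays were centred on their probe set medians and 46.9% after centring on the named genes. Centring on all probe sets shifted the median change of all genes by −0.10. Relative to the median of all genes Hey1 stood at 0.34 and Nrarp at −0.28 on the deposited values, which centring of arrays cannot change. After quantile normalization Hey1 stood at 0.47 and Nrarp at −0.36, and after cyclic loess at 0.49 and −0.37. The b arrays of the 2 groups stood nearer to the other group than the rest did. The mean log2 level of 12 pan-neuronal markers was 8.82 on DMSO replicate b and 9.06 on SP600125 replicate b. On the other DMSO arrays it ran from 9.17 to 9.19 and on the other SP600125 arrays from 8.45 to 8.59. The pan-neuronal markers of the labelled cell type were thus bright, and the 9 fibroblast and mural markers were bright too, with array means from 9.30 to 9.35 after DMSO and from 8.86 to 8.98 after SP600125. Of the marker lists, 11 of 12 pan-neuronal, 4 of 12 neural progenitor and 6 of 9 fibroblast and mural genes fell and none of these rose, and 3 of 9 astrocyte genes rose while 4 fell. Of the oligodendrocyte lineage genes 5 of 9 fell and 0 rose, and of the microglia and macrophage genes 3 of 8 rose and 0 fell. Beside these counts, 29.9% of all genes fell and 17.0% rose. Between levels 8 and 9, 66.3% of all genes fell and 2.09% rose, and between 4 and 5, 3.22% fell and 36.2% rose. The microglia and macrophage markers were dim, with array means from 4.59 to 4.74 after DMSO and from 4.74 to 4.91 after SP600125. In RNA from a whole culture, fewer cells of a type and less RNA per cell cannot be told apart, and the part of cell composition in the results below was not tested.

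Among the Notch effectors, Hey1 and Hey2 passed the test of change and Hes1 and Hes5 did not, while none of the 4 differences between a Hey and a Hes gene had an adjusted p under the threshold (given with the pairs of genes). Hey1 encodes a bHLH repressor with a hairy-related Orange domain, known as a direct target of Notch and of BMP signalling. Its log2 level on DMSO replicates a to e was 6.96, 6.89, 6.98, 6.98 and 6.95, and on SP600125 replicates a to e it was 7.21, 7.22, 7.35, 7.29 and 7.27. Every SP600125 array lay above every DMSO array, in either drug batch. The mean went from 6.95 ± 0.04 to 7.27 ± 0.06 (SD, n = 5), a change of 0.31 (SE 0.05, 95% interval 0.20 to 0.43) or 1.24-fold, with a limma adjusted p of 0.000676. Between levels 7 and 8, where Hey1 lies, 99 of 3363 genes rose (2.94%) and 2037 fell (60.6%). Between SP600125 replicate b and DMSO replicate b, Hey1 differed by 0.33, which compares 1 array with 1 array. The part of neuronal content in the change of Hey1 was not tested. Its change ran from 0.21 to 0.46 over the 4 other scalings and passed the test under each.

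Hey2, a close relative of Hey1 that is best known from the heart and blood vessels, was dimmer and more variable. Its log2 level was 5.99, 5.48, 5.59, 5.40 and 5.40 on DMSO replicates a to e and 5.91, 5.90, 5.84, 5.73 and 6.07 on SP600125 replicates a to e. DMSO replicate a lay within the range of the SP600125 arrays, and the other 4 DMSO arrays lay below it. Hey2 rose by 0.32 (SE 0.10, 95% interval 0.11 to 0.53; limma adjusted p = 0.0167), from 5.57 ± 0.25 to 5.89 ± 0.12 (SD, n = 5). Its call was lost after quantile normalization (0.24, limma adjusted p = 0.0871), cyclic loess (0.27, limma adjusted p = 0.0752) and centring on all probe sets (0.22, limma adjusted p = 0.0852).

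Hes1, the effector whose protein represses its own gene and oscillates in progenitors, had log2 levels of 7.44, 7.60, 7.46, 7.13 and 7.20 on DMSO replicates a to e. On SP600125 replicates a to e the levels were 7.47, 7.21, 7.47, 7.27 and 7.31, all within the DMSO range. The change was −0.02 (SE 0.09, 95% interval −0.21 to 0.16; limma adjusted p = 0.848), so these data leave room for a change of that interval in either direction. Hes5, the effector that depends most strictly on Notch in neural progenitors, read 6.89, 7.11, 7.13, 7.22 and 7.11 on DMSO replicates a to e. On SP600125 replicates a to e it read 7.16, 7.01, 7.01, 6.94 and 7.23, and the groups overlapped. Its change was −0.02 (SE 0.07, 95% interval −0.18 to 0.14; limma adjusted p = 0.827). Neither Hes gene passed under any alternative that was run, but their signs were not stable: that of Hes1 turned in 8 and that of Hes5 in 7 of 22. After cyclic loess Hes1 stood at 0.15 and Hes5 at 0.13, and after centring on all probe sets both stood at −0.12.

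Nrarp moved opposite to the Hey genes. Its protein is an ankyrin-repeat inhibitor of the Notch intracellular domain, and its gene is widely used as a readout of Notch activity. The log2 level was 5.61, 5.58, 5.75, 5.95 and 5.76 on DMSO replicates a to e and 5.49, 5.44, 5.45, 5.19 and 5.51 on SP600125 replicates a to e. Every SP600125 array lay below every DMSO array. Nrarp fell by 0.31 (SE 0.08, 95% interval −0.49 to −0.14; limma adjusted p = 0.00708), from 5.73 ± 0.15 to 5.42 ± 0.13 (SD, n = 5). By drug batch, Nrarp differed by −0.13 in the first and −0.43 in the second. In the interval from 5 to 6, where Nrarp lies, 1075 of 3898 genes rose (27.6%) and 539 fell. Its change ran from −0.41 to −0.28 over the other scalings and passed under each.

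Dtx1 encodes a RING-type ubiquitin ligase of the Deltex family, which binds the Notch intracellular domain. Its log2 level was 7.75, 7.58, 7.83, 7.91 and 7.90 on DMSO replicates a to e and 7.42, 7.81, 7.40, 7.34 and 7.49 on SP600125 replicates a to e. The b arrays ran against the rest, with SP600125 replicate b above DMSO replicate b by 0.23. Dtx1 fell by 0.30 (SE 0.09, 95% interval −0.50 to −0.10; limma adjusted p = 0.0169). Without both b arrays the fall was 0.43 (limma adjusted p = 0.000285). By drug batch, Dtx1 differed by −0.05 in the first and −0.47 in the second, and the interaction of treatment and batch was −0.42 (SE 0.16) with an unadjusted limma p of 0.0191 and an adjusted p of 0.519. SP600125 replicates a, c, d and e were lowest in Dtx1 and in the pan-neuronal markers, and DMSO replicate b came next in both. SP600125 replicate b lay among the other DMSO arrays in Dtx1, but below them in the markers (9.06 against 9.17 to 9.19). How many other genes share this order was not counted, and the part of neuronal content in the change of Dtx1 was not tested. The call was lost after quantile normalization (−0.17, limma adjusted p = 0.144) and cyclic loess (−0.12, limma adjusted p = 0.3).

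**Figure D2:**
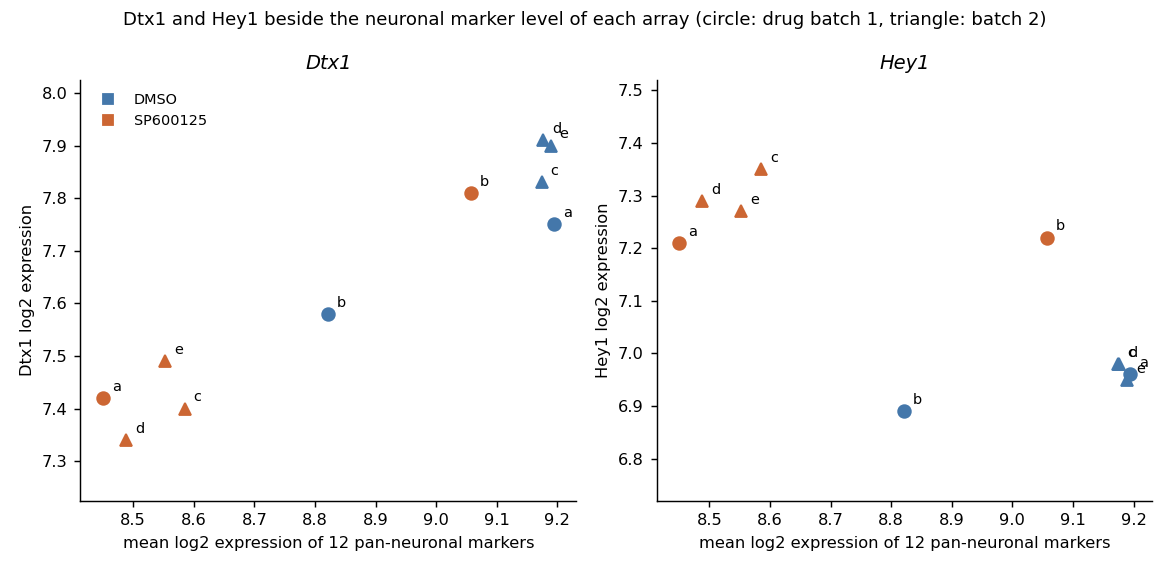
Log2 expression of Dtx1 (left) and Hey1 (right) against the mean log2 expression of 12 pan-neuronal markers on the same array, for DMSO (blue) and SP600125 (orange), with replicate letters. On SP600125 replicate b, Dtx1 is at 7.81 and the neuronal markers at 9.06. Hey1 is at 6.89 on DMSO replicate b and at 7.22 on SP600125 replicate b. The part of neuronal content in either gene was not tested.

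Whether the responses differed between genes was tested on the difference of 2 genes within each array, which centring of arrays cannot change. Quantile normalization and cyclic loess can change it, and the pairs were not tested after either. Pairs of other genes were not tested, so no share over gene pairs in general stands beside the counts below. Of 15 pairs among the 6 effector and target genes and 3 pairs of ligands, 6 reached 0.0167, the smallest two-sided p that an exact permutation within drug batches allows here, and their Benjamini-Hochberg value over the 18 pairs was 0.05, at the threshold and not under it. Hey1 changed by 0.33 more than Hes1 (exact permutation p = 0.0167, adjusted p = 0.05). Hey1 changed by 0.33 more than Hes5 (exact permutation p = 0.0333, adjusted p = 0.0667). Hey2 changed by 0.34 more than Hes1 (exact permutation p = 0.05, adjusted p = 0.09). The groups overlapped in each of these differences. Against Nrarp the difference for Hey1 was 0.62, with no overlap between the groups: Hey1 minus Nrarp was 1.23 ± 0.13 on the DMSO arrays and 1.85 ± 0.16 on the SP600125 arrays (SD, n = 5). Each of these 2 genes alone separated the groups, in opposite directions, so their difference had to separate and to give the smallest p. That pair, counted among the 6, thus adds nothing to the 2 single-gene results. Hey1 against Dtx1 (0.61), Hey2 against Nrarp (0.63) and Hes5 against Nrarp (0.29) also gave the smallest p and no overlap. Within families the differences were near 0, at −0.01 for Hey1 against Hey2 (exact permutation p = 0.9) and 0.00 for Hes1 against Hes5 (exact permutation p = 1).

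Promoter sequence was available for 8 of the 10 genes in the RefSeq table (GRCm38.p6), all but Hes1 and Hey1, with 9 start sites in all. The 250 bases before each start were searched on both strands for the RBPJ core TGGGAA, the N box CACNAG and the E box CACGTG, which Hes and Hey proteins are known to bind, and the AP-1 site TGANTCA, bound by JUN and FOS. The first 3 are 6 letters long, and none of the matches found overlapped another. The RBPJ core lay upstream of Hes5, at −226 to −221 and −82 to −77, and of Hey2, at −207 to −202. These are 2 of the 8 genes, and 21.6% of all 32851 windows hold the core. The N box lay upstream of Nrarp, at −179 to −174 and −79 to −74, of Dtx1, at −107 to −102, and of Notch1, at −108 to −103 (36.7% of all windows). The E box lay upstream of Nrarp only, at −108 to −103 (6.02% of all windows), and the AP-1 site at 1 of the 2 starts of Dll1, at −109 to −103 (6.75% of all windows). The RBPJ core and the N box were about as common in these windows as in all windows. All matches are letters in a window and not measured binding. The windows of Hes5, which did not pass, Hey2, which rose, Nrarp, which fell, and Dll1, which holds the AP-1 match, are shown in full because they carry the contrasts among the targets. They run 5′ to 3′ on the gene's strand, with the matches in capitals.
Hes5 (chr4:154960673-154960922, plus strand): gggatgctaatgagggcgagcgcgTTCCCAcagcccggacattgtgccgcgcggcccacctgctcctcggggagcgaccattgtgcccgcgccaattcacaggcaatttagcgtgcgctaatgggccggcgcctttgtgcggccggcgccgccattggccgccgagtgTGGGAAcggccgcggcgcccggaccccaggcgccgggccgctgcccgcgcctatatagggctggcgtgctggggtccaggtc
Hey2 (chr10:30842784-30843033, minus strand): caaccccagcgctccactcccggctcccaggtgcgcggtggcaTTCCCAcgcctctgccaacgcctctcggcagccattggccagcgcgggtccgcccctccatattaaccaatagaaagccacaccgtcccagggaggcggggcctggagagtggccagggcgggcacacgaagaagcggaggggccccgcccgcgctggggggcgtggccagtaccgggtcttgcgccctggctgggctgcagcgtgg
Nrarp (chr2:25180508-25180757, plus strand): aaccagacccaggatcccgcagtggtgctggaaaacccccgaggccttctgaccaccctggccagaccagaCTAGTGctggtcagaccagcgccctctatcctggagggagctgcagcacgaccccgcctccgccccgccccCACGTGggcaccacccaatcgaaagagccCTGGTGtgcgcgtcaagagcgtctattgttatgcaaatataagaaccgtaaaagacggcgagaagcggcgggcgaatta
Dll1 (chr17:15376933-15377182, minus strand): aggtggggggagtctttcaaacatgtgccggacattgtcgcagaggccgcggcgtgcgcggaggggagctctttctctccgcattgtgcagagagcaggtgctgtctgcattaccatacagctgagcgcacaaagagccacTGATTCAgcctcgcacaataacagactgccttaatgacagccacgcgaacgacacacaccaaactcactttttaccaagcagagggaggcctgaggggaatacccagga
Hes5 and Hey2 share the RBPJ core, which 21.6% of all windows hold, and only Hey2 passed the test of change. Their difference was 0.34 with an exact permutation p of 0.0667 (adjusted p = 0.109). The part of the core in either response was not tested.

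Ligand genes gave small changes. Dll1, a Delta-type ligand that neighbours read as a signal to stay undifferentiated, had log2 levels of 6.90, 6.79, 6.95, 7.06 and 6.85 on DMSO replicates a to e and 6.59, 6.81, 6.78, 6.63 and 6.85 on SP600125 replicates a to e. The ranges overlapped at the low end of DMSO and the high end of SP600125. Dll1 fell by 0.18 (SE 0.07, 95% interval −0.33 to −0.03; limma adjusted p = 0.0486), just under the threshold. That call was lost under 13 of 22 alternatives. It was lost without the drug batch term (limma adjusted p = 0.0583), with the replicate letter as a block (limma adjusted p = 0.0956) and in drug batch 1 (limma adjusted p = 0.452) or drug batch 2 alone (limma adjusted p = 0.088). It was also lost when replicate a, c or d of either group was left out (−0.22 to −0.14 and adjusted p of up to 0.129 over all leave-outs), and also after quantile normalization (−0.10, limma adjusted p = 0.244), cyclic loess (−0.06, limma adjusted p = 0.499) and centring on the named genes (−0.14, limma adjusted p = 0.0935). Dll3, a divergent Delta protein known to act within the cell that makes it, read 5.67, 5.72, 5.70, 5.89 and 5.78 on DMSO replicates a to e and 5.79, 5.57, 5.72, 5.28 and 5.56 on SP600125 replicates a to e. SP600125 replicate d was the lowest array for Dll3 and for Nrarp. Dll3 had a change of −0.17 (SE 0.09, 95% interval −0.36 to 0.02; limma adjusted p = 0.13), and it passed after quantile normalization (−0.26, limma adjusted p = 0.0403) and centring on all probe sets (−0.27, limma adjusted p = 0.016).

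Jag1, a Jagged-type ligand, pointed the other way. Its log2 level was 7.33, 7.44, 7.39, 7.32 and 7.33 on DMSO replicates a to e and 7.55, 7.39, 7.44, 7.47 and 7.59 on SP600125 replicates a to e. All 5 SP600125 arrays lay above the DMSO mean of 7.36, and the groups overlapped through DMSO replicate b (7.44) and SP600125 replicate b (7.39). The change of 0.12 (SE 0.06, 95% interval −0.01 to 0.26) did not pass (limma adjusted p = 0.105). It passed after quantile normalization (0.25, limma adjusted p = 0.0115), after cyclic loess (0.30, limma adjusted p = 0.00655), without SP600125 replicate b (0.16, limma adjusted p = 0.0451) and without both b arrays (0.17, limma adjusted p = 0.0384). Jag1 changed by 0.30 more than Dll1 (exact permutation p = 0.0333, adjusted p = 0.0667) and by 0.29 more than Dll3 (exact permutation p = 0.0167, adjusted p = 0.05).

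Notch1, the receptor best studied in the nervous system, read 7.95, 8.02, 7.95, 8.01 and 7.92 on DMSO replicates a to e and 7.84, 7.70, 8.0, 7.82 and 7.98 on SP600125 replicates a to e. The spread was wider after SP600125 (SD 0.12 against 0.04), and the groups overlapped. Its change was −0.10 (SE 0.07, 95% interval −0.24 to 0.04; limma adjusted p = 0.207), and its sign turned after quantile normalization (0.03) and cyclic loess (0.09), without a call in either. After centring on all probe sets Notch1 passed, at −0.20 (limma adjusted p = 0.0191).

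**Figure D3:**
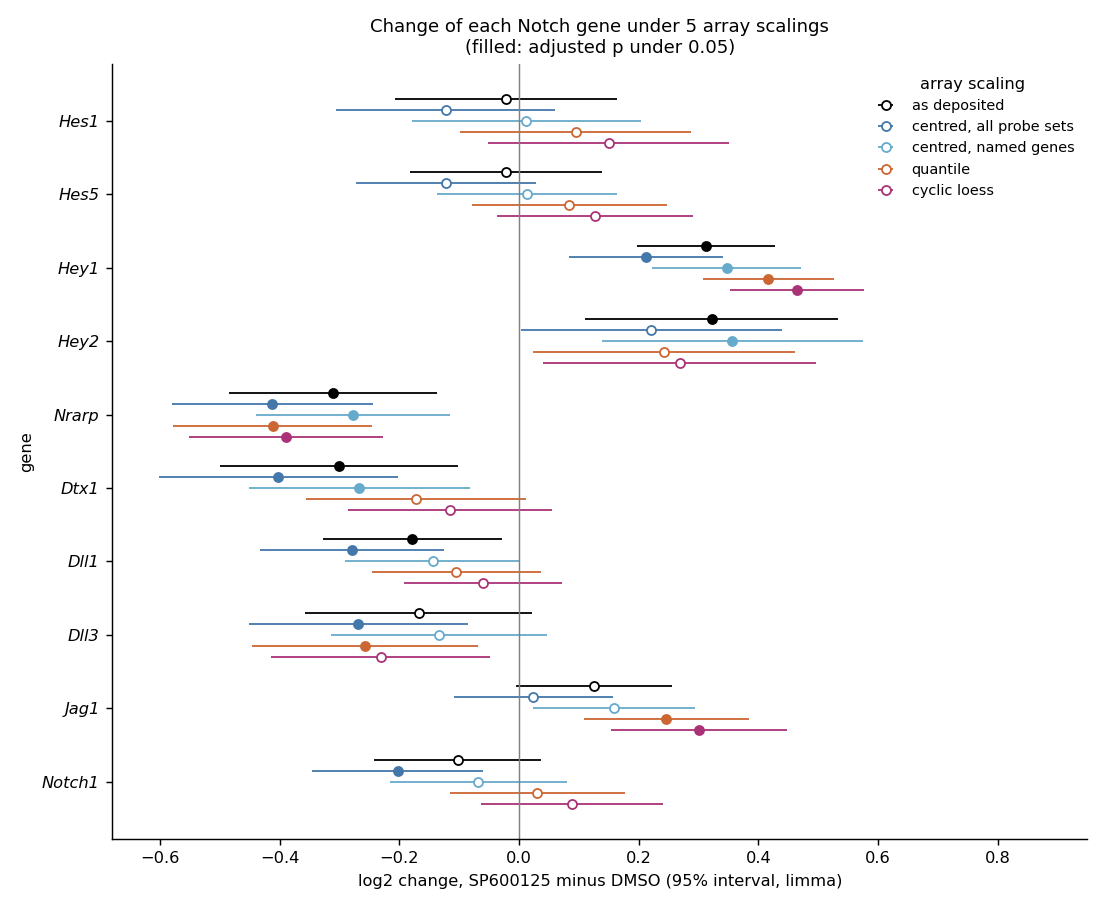
Log2 change, SP600125 minus DMSO, of each of the 10 genes (rows) with its 95% interval on the deposited values and after 4 other scalings of the arrays, filled where the limma adjusted p is under 0.05. Hey1 (0.21 to 0.46) and Nrarp (−0.41 to −0.28) are filled under every scaling, and the Hes genes under none.

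Signal level and the direction of the members can be read together. Of the 6 members between levels 7 and 8, where the median change was −0.22, Hey1 (0.31), Jag1 (0.12), Hes1 (−0.02), Hes5 (−0.02) and Notch1 (−0.10) lie above that median. Between levels 5 and 6, where it was 0.08, Hey2 (0.32) lies above it and Nrarp (−0.31) and Dll3 (−0.17) lie below. Dll1 (−0.18) and Dtx1 (−0.30) lie below the medians of their intervals (−0.14 and −0.22). Calls in the direction of Dll1, Dtx1 and Hey2 were common among genes of their level. Between levels 6 and 7, where Dll1 lies, 1574 of 3833 genes fell. Between 7 and 8, where Dtx1 lies, 60.6% of all genes fell, and between 5 and 6, where Hey2 lies, 27.6% rose.

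**Figure D4:**
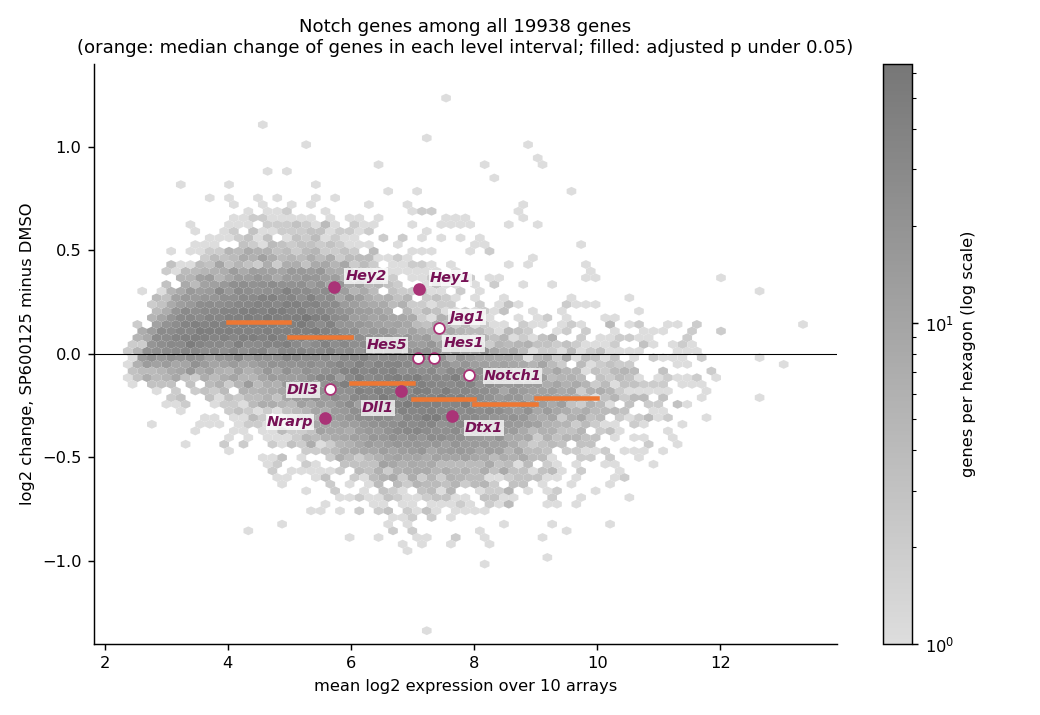
Log2 change, SP600125 minus DMSO, against mean log2 expression over the 10 arrays for 19938 genes (grey hexagons, shaded by gene number on a log scale), with the median change of each level interval (orange) and the 10 Notch genes (purple, filled where called). The orange medians go from 0.15 between levels 4 and 5 to −0.24 between 8 and 9; Hey1 stands above them and Nrarp below.

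No response could be shown to differ between the drug batches. No gene passed for the interaction of treatment and batch with limma (0.00% of all genes at an adjusted p under 0.05, and 9.28% at an unadjusted p under 0.05), and Dtx1 was the 1 member with an unadjusted p under 0.05. The batch term itself was called for no member and for 0.722% of all genes. Across settings the members called can be set beside all genes. With limma after quantile normalization 2 members rose (Hey1, Jag1) and 2 fell (Nrarp, Dll3), where 30.0% of all genes were called. After cyclic loess Hey1 and Jag1 rose and Nrarp fell, where 27.2% were called. After centring on all probe sets 1 member rose and 5 fell (50.7% of all genes called), and after centring on the named genes Hey1 and Hey2 rose and Nrarp and Dtx1 fell (47.7%). Without both b arrays 3 members rose and 3 fell (48.7%). In drug batch 2 alone, Hey1 (0.33), Hey2 (0.42), Nrarp (−0.43) and Dtx1 (−0.47) passed with limma, where 38.4% of all genes did. In drug batch 1 alone, with 2 arrays a group, no member passed and 0.00502% of all genes did, which is 1 gene.

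The wider pathway was described with 65 other measured genes in 9 groups by role. Of these 5 rose, 23 fell and 37 did not pass, with a median change of −0.08, beside the 17.0% of all genes that rose and the 29.9% that fell. After cyclic loess 8 rose and 7 fell.

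Of the other 3 receptors, Notch2 (−0.27, SE 0.08, limma adjusted p = 0.0116) and Notch3 (−0.16, SE 0.06) fell, and both lost the call after quantile normalization and cyclic loess. Notch4, known from blood vessels, rose by 0.41 (SE 0.07, limma adjusted p = 0.000811), from a mean of 5.72 to 6.13. Of 5 other ligands and ligand-like proteins, Dlk1 (−0.49, SE 0.08), a non-canonical ligand that lacks the Delta domain, Dner (−0.35, SE 0.08), a neuronal surface protein with EGF repeats, and Jag2 (−0.32, SE 0.07) fell. These 3 kept their falls after quantile normalization and cyclic loess. Dll4, the Delta ligand of endothelial sprouts, rose by 0.38 (SE 0.06, limma adjusted p = 0.000388), from 5.28 to 5.66. Notch4 and Dll4 passed under each of the 4 other scalings. The 8 endothelial markers were dim, with array means from 4.99 to 5.11 after DMSO and from 5.11 to 5.22 after SP600125; 3 rose and 1 fell, and their part in the rises of Notch4 and Dll4 was not tested.

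Of the 5 ubiquitin ligases that drive ligand endocytosis, Mib1 fell (−0.28, SE 0.06) and the other 4 did not pass. Of the 5 glycosyltransferases that modify the receptor, Rfng (−0.29, SE 0.09) and Poglut1 (−0.22, SE 0.06) fell. Of 9 genes of receptor cleavage, the gamma-secretase subunit Ncstn (−0.23, SE 0.06), the proprotein convertase Furin (−0.23, SE 0.07) and the sheddase Adam17 (−0.20, SE 0.07) fell, and the gamma-secretase subunit Aph1c rose (0.24, SE 0.07). Without both b arrays Aph1c and Adam17 were no longer called. After cyclic loess none of these 6 falls passed, and the cleavage group then held 3 rises, those of Aph1a, Aph1c and Psenen.

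Of 18 genes of the nuclear complex and its corepressors, 6 fell and none rose. Beside this, 29.9% of all genes fell and 17.0% rose. Mean levels in this group ran from 4.83 to 9.20, and between levels 7 and 8 60.6% of all genes fell. The acetyltransferase Kat2a (−0.45, SE 0.08), the corepressor Spen (−0.36, SE 0.06) and the corepressor Ctbp1 (−0.27, SE 0.07) changed most, and Kat2a and Spen stayed lower under all 4 other scalings. Rbpj, the DNA-binding factor of the pathway, had a change of 0.03 (SE 0.06, 95% interval −0.10 to 0.15; limma adjusted p = 0.717) on its brighter probe set. A second and dim probe set went from 3.89 ± 0.16 to 4.37 ± 0.19 (SD, n = 5), so the 2 probe sets of Rbpj disagree, and their mean passed at 0.25 (limma adjusted p = 0.00654). Rbpj also passed after cyclic loess (0.20, limma adjusted p = 0.0174).

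Of 9 negative regulators and turnover genes, 5 fell and none rose, where 29.9% of all genes fell and 17.0% rose. Mean levels in this group ran from 4.79 to 8.18, and between levels 7 and 8 60.6% of all genes fell. Fbxw7, which marks the Notch intracellular domain for degradation, fell by 0.41 (SE 0.06) on the brighter of its 2 probe sets, Aak1, a kinase of clathrin-mediated endocytosis, by 0.32 (SE 0.07) and Dtx4, a relative of Dtx1, by 0.28 (SE 0.06). The mean of both Fbxw7 probe sets fell by only 0.17 (limma adjusted p = 0.0342). Numb, which antagonises Notch by endocytosis, did not pass (−0.08, SE 0.06, limma adjusted p = 0.3). After cyclic loess Fbxw7 was the 1 gene of this group that still fell. Among the 5 other Hes and Hey genes, Hes6, whose product counters Hes1 and promotes neuronal differentiation, fell by 0.26 (SE 0.06) and Hes3 rose by 0.21 (SE 0.06), and neither passed after cyclic loess. Of 6 proneural factors, whose genes Hes proteins repress, Neurog3 rose by 0.55 (SE 0.08, limma adjusted p = 0.000276), from 5.19 to 5.75, also under the 4 other scalings, and the other 5 did not pass.

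**Figure D5:**
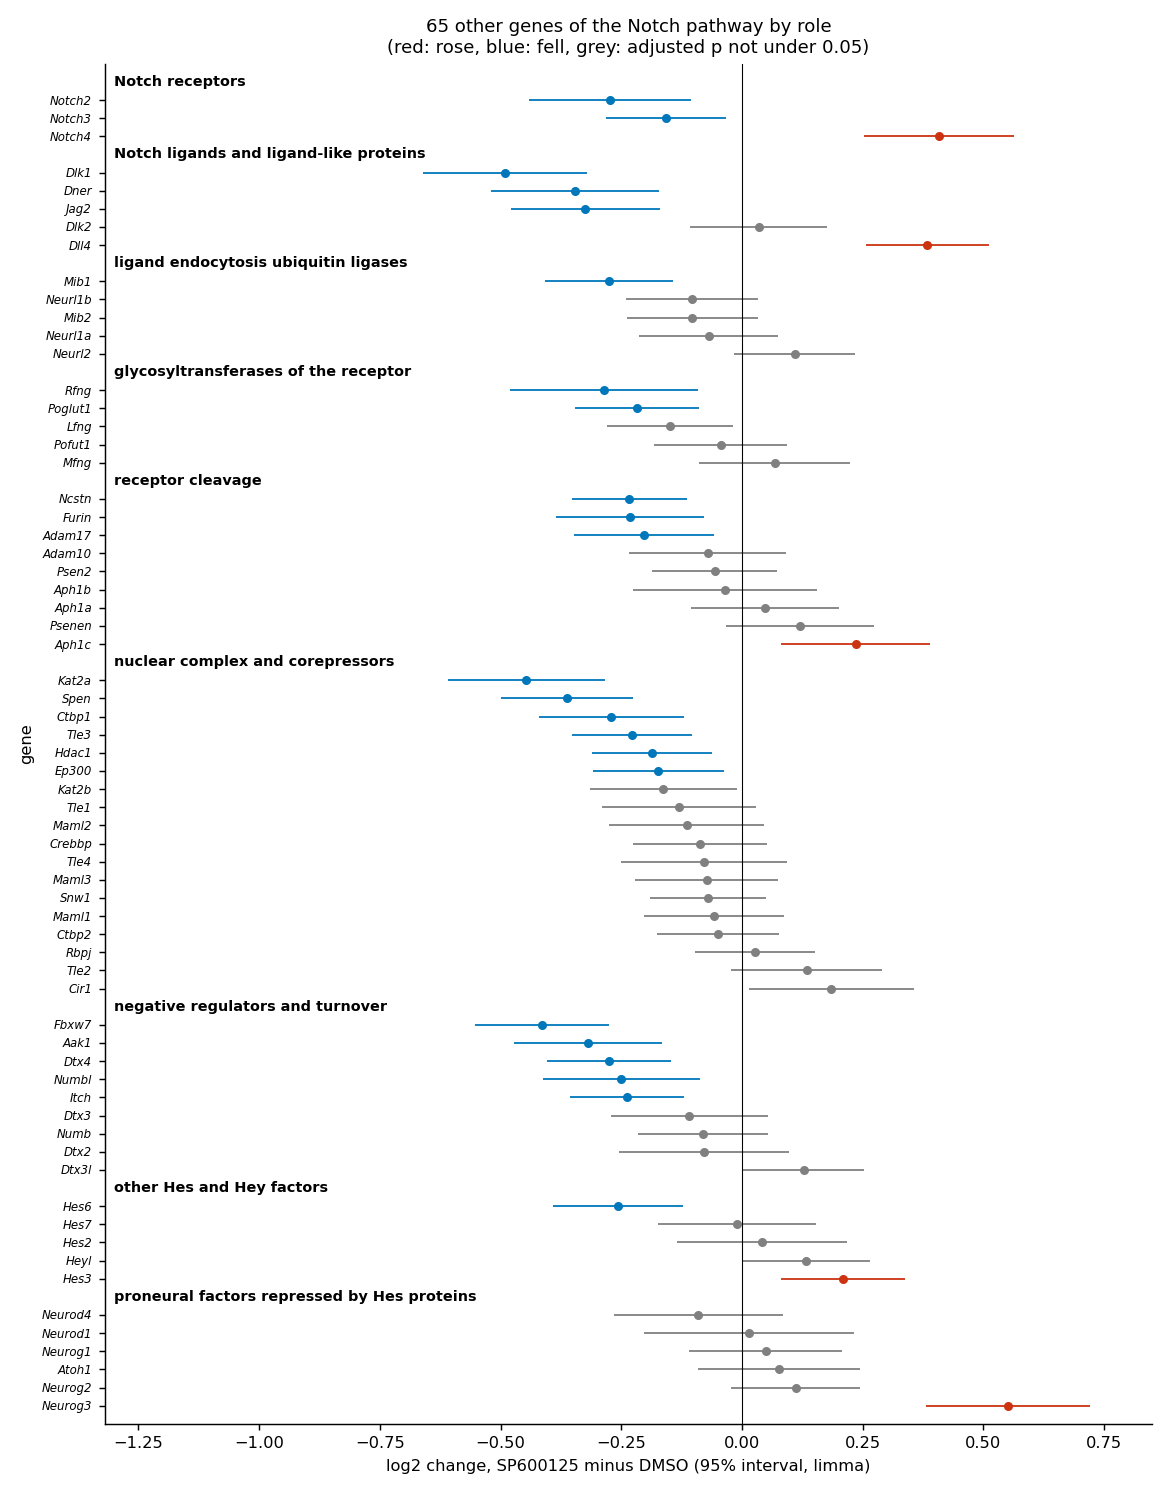
Log2 change, SP600125 minus DMSO, with its 95% interval for 65 other genes of the Notch pathway, sorted by role on the vertical axis and coloured red where they rose, blue where they fell and grey where the limma adjusted p was not under 0.05. Of the 65 genes 23 are blue and 5 red, the latter being Notch4, Dll4, Aph1c, Hes3 and Neurog3. Mean log2 levels run from 5.33 to 6.09 for the red genes and from 6.24 to 10.58 for the blue genes.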

How the data were processed

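Total RNA of 10 samples was processed for Affymetrix whole-transcript arrays, per the labels' protocols. The deposited log2 expression values cover 35556 probe sets. The submitters' processing notes name oligo 1.14.0, but how the authors corrected background, normalized and summarized is not given in the sources used here. The log2 scale was read from the values. Of the probe sets 21789 carried 1 gene symbol in the platform's probe table, and for each of 19938 genes the probe set brightest on average was kept. Values were used as deposited. Differences are SP600125 minus DMSO from limma 3.58.1 (R 4.3.3; lmFit and eBayes, two-sided) with drug batch as a term and 7 residual degrees of freedom, with Benjamini-Hochberg adjustment over all genes. The fit was tested on simulated data. Differences between 2 genes were tested by exact permutation within drug batches. Alternatives were other scalings, a level filter, other batch terms, limma-trend, averaged probe sets and leaving out arrays. The number of arrays limits the precision. Members and gene lists were chosen with earlier results of these data known. Named pathway genes were up to 3 of the largest called changes per group, plus Rbpj, Notch2, Notch3, Hes6, Numb and Dll4; Jag2, Adam17, Aph1a and Psenen were named after their values were seen. Of 70 pathway genes written 65 were measured, and the others were not analysed here. Promoters came from RefSeq (GRCm38.p6).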

Additional observations from a re-analysis of the deposited data

Results flagged for a closer look

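In 3 of 66 groups of 5 arrays, over the 33 genes examined, 1 array lay far from the others by Dixon's criterion, where chance gives about 1 in 20. Nrarp read 5.19 on SP600125 replicate d, and the other SP600125 arrays lay between 5.44 and 5.51. Without that array Nrarp still fell (−0.24, limma adjusted p = 0.0181). Notch3 read 7.30 on DMSO replicate b, against 7.17 to 7.19 on the other DMSO arrays, and without that array its change was −0.15 (limma adjusted p = 0.0739), beside −0.16 with it (limma adjusted p = 0.0391). The call of Notch3 was lost under 14 of 22 alternatives, most single arrays left out among them. Dner read 10.67 on DMSO replicate b, against 10.77 to 10.78 on the other DMSO arrays.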

How the results depend on the processing

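Hes1 and Hes5 stayed uncalled under all 22 alternatives, and Hey1 and Nrarp stayed called under 21 of 22, the exception being drug batch 1 alone (Hey1 0.28, limma adjusted p = 0.176; Nrarp −0.13, limma adjusted p = 0.477). Over all 10 members, 191 of 220 values kept their side of the threshold, 22 lost the call, 7 gained it and 0 called values changed sign; 17 uncalled values did, 8 of Hes1, 7 of Hes5 and 2 of Notch1. Genes called in all numbered 5991 after quantile normalization and 5419 after cyclic loess, against 9351. After centring on all probe sets 1 member rose and 5 fell, and 3 pathway genes rose and 36 fell (7.52% of all genes rose and 43.1% fell). After cyclic loess 1 member fell, and 8 pathway genes rose and 7 fell (9.44% of all genes rose and 17.7% fell). After centring on the named genes 8 pathway genes rose (22.3% of all genes), and after quantile normalization 9 fell (22.5% of all genes). In drug batch 1 alone, with fewer arrays, 1 gene was called, and 0 members and 0 pathway genes rose or fell. Correlations of deviations from the group means between arrays of the same letter ran from −0.21 to 0.10. They showed no pairing by letter but cannot exclude it. The 2 b arrays were the closest arrays across the groups, with a mean absolute log2 difference of 0.21. With the letter as a replicate block, 8252 genes were called and 2 members rose and 2 fell (14.8% of all genes rose and 26.6% fell). Leaving out both b arrays was chosen after seeing the data and gave 3 rises and 3 falls among the members (17.1% of all genes rose and 31.6% fell). The files give no detection call, so how far the dim members Hey2, Nrarp and Dll3 stand above background is not known here. The same holds for the dim pathway genes Notch4, Dll4, Hes3 and Neurog3.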

Other observations

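The genes whose pattern over the 10 arrays was most like that of Hes1 were Usp40 (Pearson r = 0.88), which encodes a deubiquitinase, Pdlim5 (0.87), a PDZ and LIM domain protein, and Ccnl2 (0.85), a cyclin of the L type. Those most like Hes5 were Rassf10 (0.92), a Ras-association domain protein, Pskh1 (0.89), a protein kinase, and Trpm4 (0.89), a cation channel. These correlations describe 10 arrays of 2 groups and were the highest among 19938 genes, so they carry no test. The changes of the 6 genes after SP600125 ran from −0.07 to 0.06 on the log2 scale.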
